A study of Canis lupus familiaris with 12 samples.

Results

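TFAP2A and 8 other transcription factors of epithelia and kidney tubules (TFAP2B, TFAP2C, PAX2, PAX8, GRHL1, GRHL2, ELF3, and KLF5) were followed in RNASeq libraries of MDCKII, a dog kidney line of epithelial cells. These 9 genes were taken by name from the 13672 listed genes. TFAP2A was chosen by its CPM in the CGN-KO and WT libraries, for its fall in the CGN-KO line, so its difference between CGN-KO and WT cells is described here without a test. Of the listed genes, 12650 had more than 1 CPM (counts per 1000000 reads) in at least 3 libraries and were tested, among them all 9 genes. No CGN-KO or dKO library was above 1 CPM for TFAP2A, which met this filter through its WT and its CGNL1-KO libraries, each set of 3 being enough.

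The cells were untreated and of 4 genotypes, each sequenced as 3 libraries. WT cells were compared with a line KO for CGN (cingulin; clone 1G8), a line KO for CGNL1 (paracingulin; clone 22), and a line KO for both (dKO; clone 21D3). Cingulin and paracingulin are cytoplasmic proteins of epithelial junctions. Each KO genotype was 1 clonal line made by CRISPR/Cas9 gene editing, so a genotype and its line cannot be told apart. The sources used here do not give the clone from which the dKO line was made. Nothing states that the libraries of a genotype came from separate cultures, so p-values measure the spread between these samples, which may be technical. Libraries held between 16837532 and 30086076 reads. CGN mRNA was at 199 to 233 CPM in WT, 47.0 to 56.5 CPM in CGN-KO, 198 to 213 CPM in CGNL1-KO, and 39.7 to 45.3 CPM in dKO libraries. CGNL1 mRNA was at 7.74 to 12.3 CPM in WT, 5.04 to 6.92 CPM in CGN-KO, 1.76 to 3.02 CPM in CGNL1-KO, and 1.11 to 1.76 CPM in dKO libraries. The 7 epithelial markers, CDH1, EPCAM, and keratins among them, were all above the filter, with a summed level of 6959 to 7735 CPM in a library. Of the endothelial markers 2 of 4 were listed (KDR and VWF, summed level of 0.690 to 2.98 CPM; PECAM1 and CDH5 not listed), and of the leukocyte markers 2 of 4 (CD14 and CD68, 7.05 to 12.3 CPM; PTPRC and CD3E not listed). Of the tubule markers, 4 of 6 for principal cells were listed (14.6 to 23.7 CPM, with AQP2 and AQP4 not listed). For intercalated cells 2 of 5 were listed (132 to 191 CPM, with FOXI1, SLC26A4, and SLC4A1 not listed). Most of that sum came from ATP6V1B1, with genotype means of 112 to 123 CPM. For the proximal tubule 1 of 6 was listed (CUBN, 13.0 to 21.2 CPM), and none of the 5 for the distal tubule and thick limb. Of the podocyte markers 1 of 4 was listed (PODXL, 327 to 501 CPM), and of the fibroblast markers 1 of 8 (PDGFRA, at most 11.1 CPM). The tubule segment that the line resembles was not tested.

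AP-2 proteins (the TFAP2 genes) bind GC-rich DNA as dimers and act in neural crest, epidermis, and other ectoderm, and in kidney tubules. PAX2 and PAX8 are paired-box proteins required for the formation of kidney epithelium. Grainyhead-like proteins (GRHL) switch on genes of epithelial junctions, and ELF3 and KLF5 are an ETS and a Krüppel-like factor enriched in epithelia.

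TFAP2A mRNA was nearly lost from both lines KO for CGN and was kept in the CGNL1-KO line. It stood at 7.25, 8.56, and 8.17 CPM in WT replicates 1, 2, and 3, and at 0.956, 0.593, and 0.472 CPM in CGN-KO replicates 1, 2, and 3. It stood at 8.42, 6.36, and 6.37 CPM in CGNL1-KO replicates 1, 2, and 3, and at 0.581, 0.398, and 0.203 CPM in the unnumbered dKO library and dKO replicates 2 and 3. Every CGN-KO and dKO library was thus below 1 CPM and below every WT and CGNL1-KO library, whereas the WT and CGNL1-KO values overlapped. The lost signal was small in reads. TFAP2A had 123 to 171 reads in a WT library and 119 to 145 reads in a CGNL1-KO library, against 8 to 29 reads in a CGN-KO library and 5 to 12 reads in a dKO library. The mean in CGN-KO cells (0.674 ± 0.252 CPM, SD, n = 3) was 8.43% of the WT mean (7.99 ± 0.673 CPM, SD, n = 3).

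The difference between the dKO and CGNL1-KO means uses none of the libraries in which TFAP2A was picked, although the spread in the fit came from all 12 libraries. The mean was 0.394 ± 0.189 CPM in dKO and 7.05 ± 1.18 CPM in CGNL1-KO cells (SD, n = 3 each), a 17.9-fold lower level. On the log2(CPM + 1) scale, which understates the change of scarce genes, the difference was -2.53 (SE 0.147, 95% interval -2.84 to -2.22, limma adjusted p = 1.77e-08). In a fit of these 2 genotypes alone the same difference had an SE of 0.153 (limma adjusted p = 8.70e-07), and with no filter on low values the limma adjusted p was 9.14e-09. edgeR on the recovered reads gave a log2 fold change of -4.18 (adjusted p = 8.43e-08), and the adjusted p lay between 6.76e-31 and 8.70e-07 over 19 alternatives. By an exact two-sided permutation test of these 3 against 3 libraries p was 0.1, the smallest value that this design allows. Of all genes tested, 0.482% fell at least 2-fold with an adjusted p below 0.05 in this comparison.

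The other TFAP2A differences share libraries with the one that picked it and are given as values. Against the same 3 WT libraries, the log2(CPM + 1) difference was -2.43 for the CGN-KO line, -0.17 for the CGNL1-KO line (95% interval -0.48 to 0.15), and -2.70 for the dKO line. The difference between dKO and CGN-KO cells was -0.26 (95% interval -0.57 to 0.05), and the libraries of these 2 genotypes overlapped.

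**Figure D1:**
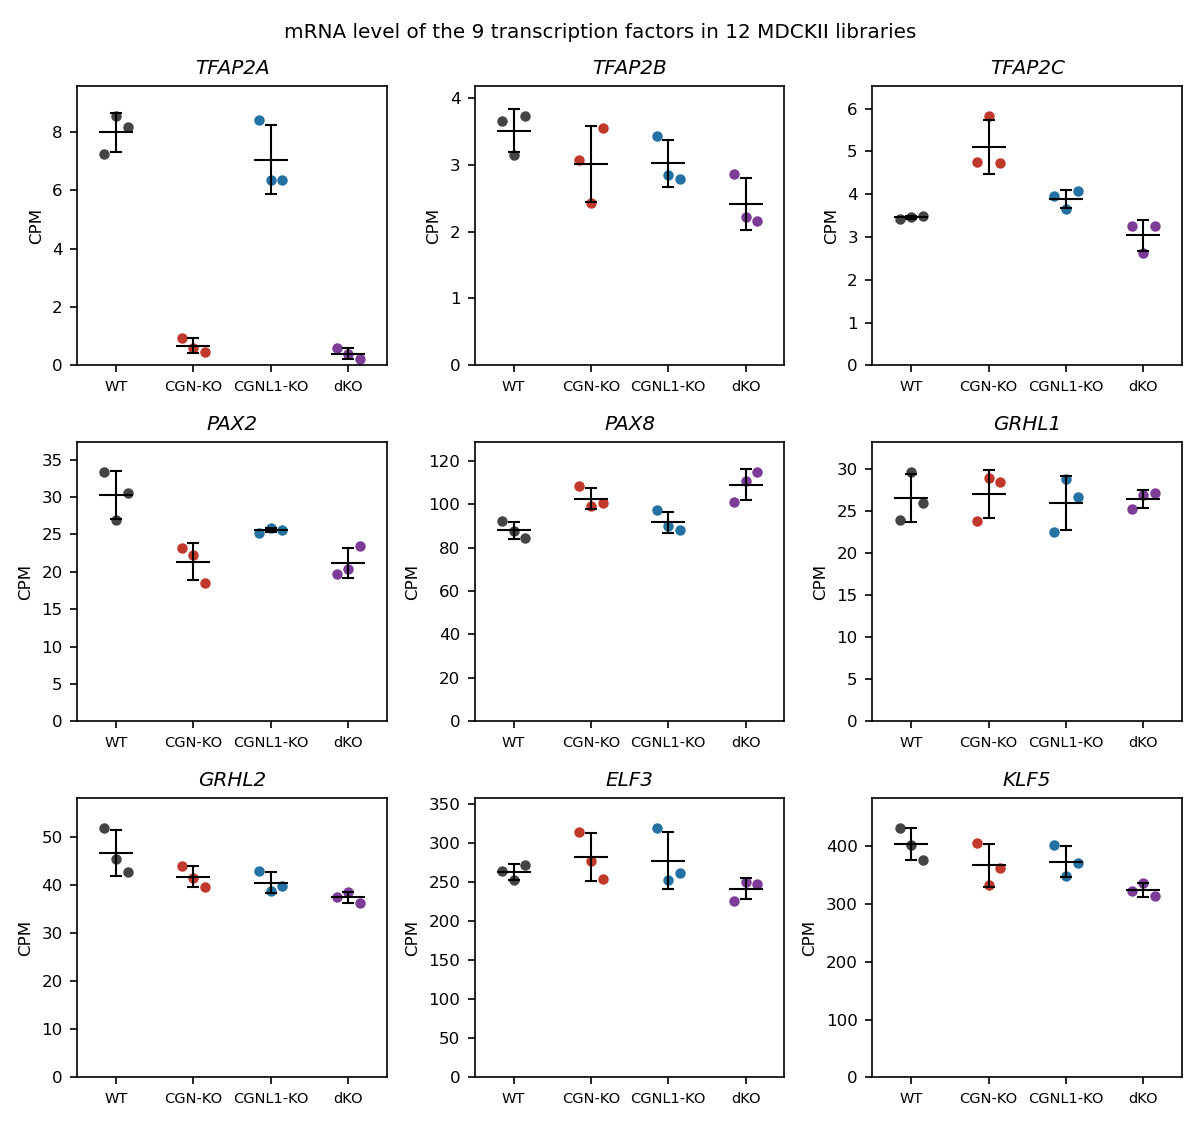
Level of each of the 9 transcription factors (y axis, CPM on a linear scale from 0, with its own range per gene) in the 12 libraries by genotype (x axis). Points are libraries, and bars are the mean and SD of 3 libraries. TFAP2A is below 1 CPM in all CGN-KO and dKO libraries, whereas the 4 genotypes overlap for GRHL1.

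Neither of the 2 other measured AP-2 genes was below 2 CPM in any library. TFAP2B, an AP-2 gene of distal nephron segments, was at 3.65, 3.15, and 3.73 CPM in WT replicates 1, 2, and 3. It was at 3.07, 2.42, and 3.54 CPM in CGN-KO replicates 1, 2, and 3, and at 3.42, 2.84, and 2.78 CPM in CGNL1-KO replicates 1, 2, and 3. In dKO cells it was at 2.86 CPM in the unnumbered library and at 2.22 and 2.15 CPM in replicates 2 and 3. The dKO libraries were below every WT library, and the single KO libraries overlapped with WT. TFAP2B fell in dKO against WT cells (log2 difference -0.41, SE 0.133, limma adjusted p = 0.0324), to 68.7% of the WT mean. This call was lost with DESeq2 (adjusted p = 0.0572) and without WT replicate 1 (-0.38), WT replicate 3 (-0.37), dKO replicate 2 (-0.37), or dKO replicate 3 (-0.35).

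TFAP2C, the AP-2 gene of trophoblast and mammary epithelium, was at 3.42, 3.48, and 3.49 CPM in WT replicates 1, 2, and 3, and at 4.75, 5.83, and 4.72 CPM in CGN-KO replicates 1, 2, and 3. It was at 3.95, 3.66, and 4.07 CPM in CGNL1-KO replicates 1, 2, and 3, and at 3.25, 2.62, and 3.25 CPM in the unnumbered dKO library and dKO replicates 2 and 3. All CGN-KO libraries were above all others, and all dKO libraries were below all others. TFAP2C rose in CGN-KO cells, to 147% of the WT mean (log2 difference 0.45, SE 0.11, limma adjusted p = 0.00985), a call that was lost without CGN-KO replicate 2 (0.36). It was lower in dKO than in CGN-KO cells (-0.59, SE 0.11, limma adjusted p = 0.00334). Its differences in CGNL1-KO (0.13, adjusted p = 0.544) and dKO cells (-0.15, adjusted p = 0.354) against WT did not pass limma's test. For TFAP2C, the dKO minus CGNL1-KO difference minus the CGN-KO minus WT difference was -0.73 (SE 0.158, 95% interval -1.06 to -0.39, limma adjusted p = 0.00736). Each KO genotype was 1 line, so a part of the CGNL1 background in this value cannot be told apart from the clone. TFAP2C was the sole member of 8 tested for which this difference of differences passed, against 10.3% of all genes tested.

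Neighbouring genes gave the setting of the AP-2 values. Gene order was taken from RefSeq (UU_Cfam_GSD_1.0), and for each factor the 10 nearest tested genes on each side were used. The 20 genes around TFAP2A, from FARS2 to GFOD1, had median log2 differences from WT of 0.0037 for the CGN-KO, 0.018 for the CGNL1-KO, and 0.048 for the dKO line. The lowest of them was at -0.35 in CGN-KO and at -0.27 in dKO cells, so no neighbour was as low as TFAP2A. This is a description, since TFAP2A was picked for its fall in CGN-KO cells and both lines are set against the same WT libraries. The 20 genes around TFAP2C, from NFATC2 to GNAS, were higher than WT in all 3 KO lines, with medians of 0.33 for the CGN-KO (19 of 20 higher), 0.35 for the CGNL1-KO (19 of 20), and 0.34 for the dKO line (18 of 20). TFAP2C minus the median of its neighbours was 0.12 for the CGN-KO, -0.22 for the CGNL1-KO, and -0.49 for the dKO line. The part of this segment in the rise of TFAP2C in CGN-KO cells was not tested. For the other 7 factors the median of the neighbours lay between -0.12 and 0.05 in each KO line against WT. Around PAX2, 4 of 20 neighbours were higher than WT in CGN-KO and 4 of 20 in dKO cells (both medians -0.10). Around KLF5, 2 of 20 were higher in CGN-KO (median -0.095) and 4 of 20 in dKO cells (median -0.12). In dKO cells, PAX2 minus its neighbours' median was -0.39, and KLF5 minus that of its own was -0.19. The part of these segments in the falls of PAX2 and KLF5 was not tested.

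**Figure D2:**
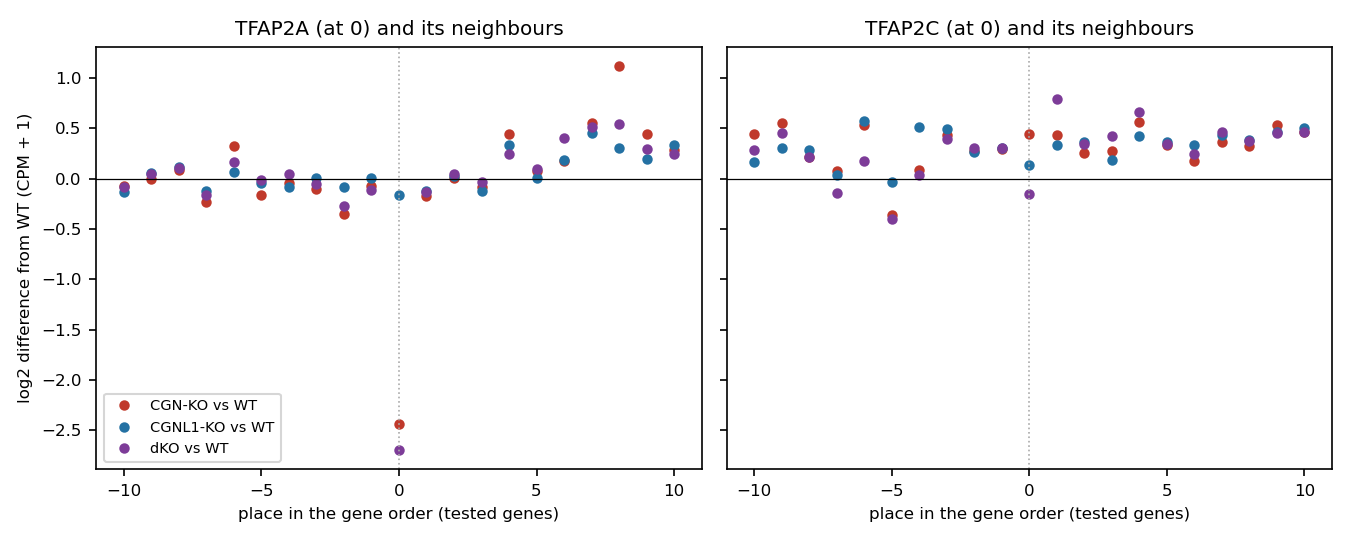
Log2(CPM + 1) difference from WT (y axis) of TFAP2A (left) and TFAP2C (right), both at place 0, and of their 10 nearest tested genes on each side in RefSeq gene order (x axis, rank of the gene). Colours are the 3 KO lines against the same WT libraries. TFAP2A, picked for its fall in CGN-KO cells, lies far below its neighbours in CGN-KO and dKO cells, and most neighbours of TFAP2C lie above 0 in all 3 lines.

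PAX2 fell and PAX8 rose in the CGN-KO and dKO lines. PAX2 was at 33.4, 26.9, and 30.5 CPM in WT replicates 1, 2, and 3, and at 23.2, 22.3, and 18.5 CPM in CGN-KO replicates 1, 2, and 3. It was at 25.3, 25.9, and 25.6 CPM in CGNL1-KO replicates 1, 2, and 3, and at 19.8, 20.4, and 23.5 CPM in the unnumbered dKO library and dKO replicates 2 and 3. The WT libraries were the highest, the CGNL1-KO libraries lay between, and the CGN-KO and dKO libraries overlapped at the bottom. PAX2 fell in CGN-KO (log2 difference -0.49, SE 0.095, limma adjusted p = 0.00178) and in dKO cells (-0.49, SE 0.095, limma adjusted p = 0.00119), to 70.5% and 70.1% of the WT mean. Both calls passed in all 19 alternatives. The difference of -0.23 in CGNL1-KO cells did not pass limma's test (95% interval -0.43 to -0.03, adjusted p = 0.159), nor did that of -0.26 between dKO and CGNL1-KO cells (95% interval -0.46 to -0.06, adjusted p = 0.0785).

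PAX8 was at 92.2, 87.5, and 84.3 CPM in WT replicates 1, 2, and 3, and at 108.1, 99.1, and 100.3 CPM in CGN-KO replicates 1, 2, and 3. It was at 97.1, 89.8, and 87.9 CPM in CGNL1-KO replicates 1, 2, and 3, and at 101, 111, and 115 CPM in the unnumbered dKO library and dKO replicates 2 and 3. The CGN-KO and dKO libraries were above every WT library, and the CGNL1-KO libraries overlapped with WT. PAX8 rose in CGN-KO (log2 difference 0.22, SE 0.062, limma adjusted p = 0.0208) and dKO cells (0.30, SE 0.062, limma adjusted p = 0.00184), and was higher in dKO than in CGNL1-KO cells (0.25, SE 0.062, limma adjusted p = 0.0134). The call in dKO against WT passed in all 19 alternatives. That in CGN-KO against WT was lost without WT replicate 2 (0.21), WT replicate 3 (0.19), or CGN-KO replicate 1 (0.18), and that between dKO and CGNL1-KO cells without CGNL1-KO replicate 3 (0.22), dKO replicate 2 (0.23), or dKO replicate 3 (0.21). The opposite moves of the 2 PAX genes were small beside that of TFAP2A, with PAX8 at 117% of the WT mean in CGN-KO and at 124% in dKO cells.

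Of the Grainyhead-like genes, GRHL2 fell in dKO cells, and GRHL1 passed the test in no comparison. GRHL1, a regulator of desmosome genes in epidermis, was at 24.0 to 29.6 CPM in WT, 23.8 to 28.9 CPM in CGN-KO, 22.5 to 28.8 CPM in CGNL1-KO, and 25.2 to 27.2 CPM in dKO libraries. All 4 ranges overlapped, and the 95% interval of its log2 difference from WT was -0.19 to 0.24 for the CGN-KO, -0.24 to 0.18 for the CGNL1-KO, and -0.21 to 0.21 for the dKO line. GRHL2, which drives CDH1 and claudin genes in other epithelia, was at 51.9, 45.4, and 42.6 CPM in WT replicates 1, 2, and 3, and at 37.5, 38.4, and 36.3 CPM in the unnumbered dKO library and dKO replicates 2 and 3. It was at 39.6 to 44.0 CPM in CGN-KO and at 38.8 to 42.9 CPM in CGNL1-KO libraries. The dKO libraries were below those of every other genotype, and the single KO ranges overlapped with WT. GRHL2 fell in dKO cells to 80.3% of the WT mean (log2 difference -0.31, SE 0.073, limma adjusted p = 0.00559), which passed in all 19 alternatives. Its differences of -0.15 in CGN-KO (adjusted p = 0.158) and -0.20 in CGNL1-KO cells (adjusted p = 0.115) did not pass limma's test.

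ELF3 and KLF5 were the factors with the most reads, and KLF5 fell in dKO cells. ELF3 was at 253 to 272 CPM in WT, 255 to 315 CPM in CGN-KO, 253 to 320 CPM in CGNL1-KO, and 226 to 251 CPM in dKO libraries. All dKO libraries were below all WT libraries, but the log2 difference of -0.12 did not pass limma's test (95% interval -0.30 to 0.06, adjusted p = 0.314). KLF5, a factor of proliferating epithelium and of the collecting duct, was at 431, 401, and 376 CPM in WT replicates 1, 2, and 3, and at 322, 337, and 313 CPM in the unnumbered dKO library and dKO replicates 2 and 3. It was at 332 to 405 CPM in CGN-KO and at 348 to 401 CPM in CGNL1-KO libraries. The dKO values were below every WT and CGNL1-KO value and overlapped with those of CGN-KO cells. KLF5 fell in dKO cells to 80.5% of the WT mean (log2 difference -0.31, SE 0.074, limma adjusted p = 0.00542), which passed in all 19 alternatives. Its differences of -0.14 in CGN-KO (adjusted p = 0.216) and -0.11 in CGNL1-KO cells (adjusted p = 0.429) did not pass limma's test.

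**Figure D3:**
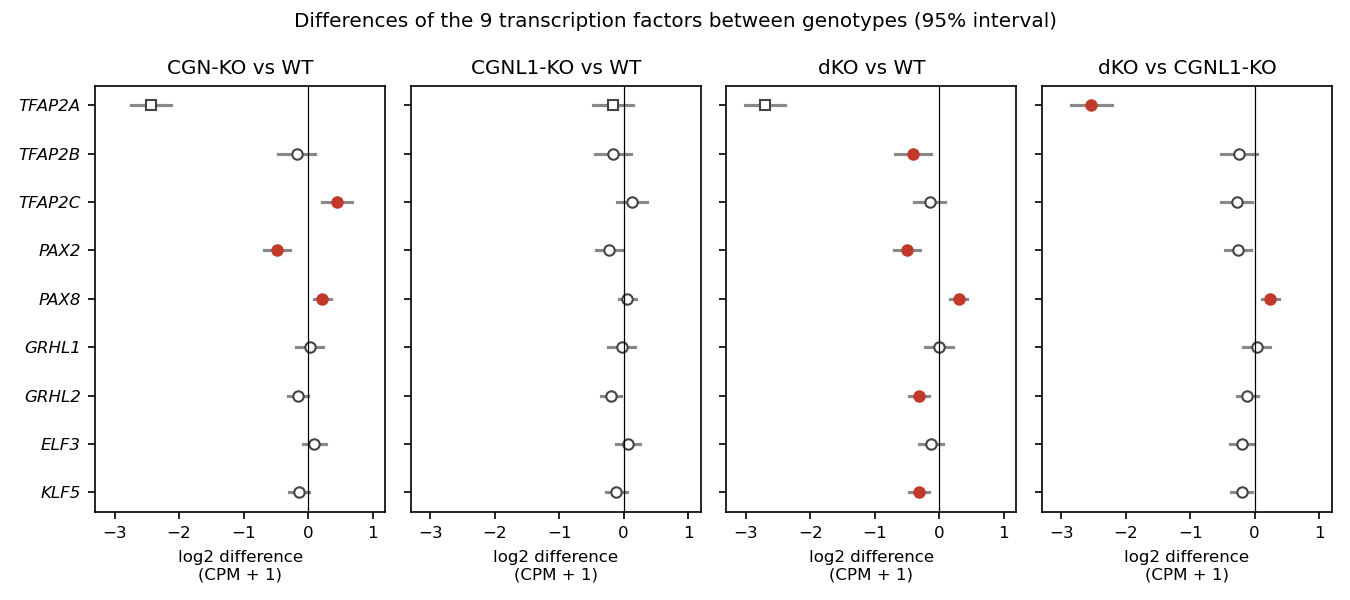
Log2(CPM + 1) difference (x axis) of each factor (y axis) in 4 comparisons, with bars for the 95% interval. Red circles passed limma's test at an adjusted p below 0.05, open circles did not, and squares mark TFAP2A where it was not tested; PAX2 lies below 0 and PAX8 above 0 in CGN-KO and dKO cells.

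Without TFAP2A, 3 of 8 factors (2 higher and 1 lower) changed in CGN-KO against WT cells by limma at an adjusted p below 0.05, beside 19.0% of all genes tested (11.2% higher and 7.87% lower). In dKO cells 5 of 8 (1 higher and 4 lower) changed, beside 26.3% of all genes (14.8% higher and 11.5% lower). In CGNL1-KO cells 0 of 8 changed by limma, by edgeR, or by DESeq2, beside 10.3% of all genes. GRHL2 and PAX2 had an unadjusted p below 0.05 in that comparison. Between dKO and CGN-KO cells 1 of 8 (TFAP2C) changed, beside 8.84% of all genes, and between dKO and CGNL1-KO cells 2 of 9 (TFAP2A and PAX8), beside 14.4%. Limma's F test over the 4 genotypes called 5 of 8 (TFAP2C, PAX2, PAX8, GRHL2, and KLF5), beside 29.9% of all genes, and did not call TFAP2B (adjusted p = 0.128), ELF3 (adjusted p = 0.176), or GRHL1 (adjusted p = 0.962). This count was 3 without WT replicate 1 or 2 or any 1 of the 3 dKO libraries. None of the 8 factors changed by 2-fold in any of these comparisons, in which 1.31% (CGN-KO against WT), 0.617% (CGNL1-KO against WT), 1.41% (dKO against WT), 0.356% (dKO against CGN-KO), and 0.696% (dKO against CGNL1-KO) of all genes did. The values of both genotypes did not overlap for 3 of 8 factors between CGN-KO and WT cells (35.9% of all genes), for 2 of 8 between CGNL1-KO and WT (24.4%), and for 7 of 8 between dKO and WT (45.0%). The same held for 3 of 8 between dKO and CGN-KO cells (30.5%) and for 7 of 9, TFAP2A included, between dKO and CGNL1-KO cells (31.8%).

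Over the 12 libraries, the gene with the pattern most like that of TFAP2A was CGN itself (Pearson r = 0.99 on log2(CPM + 1), Spearman rho = 0.90). It was followed by OSBPL3 (0.99), TSPAN9 (0.98), PLAU (0.97), and RASSF6 (0.97). These are descriptions, since TFAP2A was picked for its pattern and the libraries of a genotype share a line. None of these genes fell as far as TFAP2A. PLAU, the urokinase plasminogen activator, was at 206 ± 8.30 CPM in WT, 86.1 ± 5.93 CPM in CGN-KO, 208 ± 22.8 CPM in CGNL1-KO, and 78.1 ± 7.24 CPM in dKO cells (SD, n = 3 each). RASSF6, a Ras-association domain protein, was at 119, 71.4, 113, and 68.5 CPM on average in WT, CGN-KO, CGNL1-KO, and dKO cells. OSBPL3, a lipid-binding protein, was at 248, 175, 235, and 161 CPM on average in the same order, and TSPAN9, a tetraspanin, at 121, 99.6, 118, and 98.3 CPM. Among the other factors, r with TFAP2A was highest for PAX2 (0.82) and lowest for PAX8 (-0.86), and it was -0.12 for TFAP2C. Counted from the highest r among all genes tested, PAX2 ranked 342 and PAX8 12463, so many genes followed TFAP2A more closely than PAX2.

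**Figure D4:**
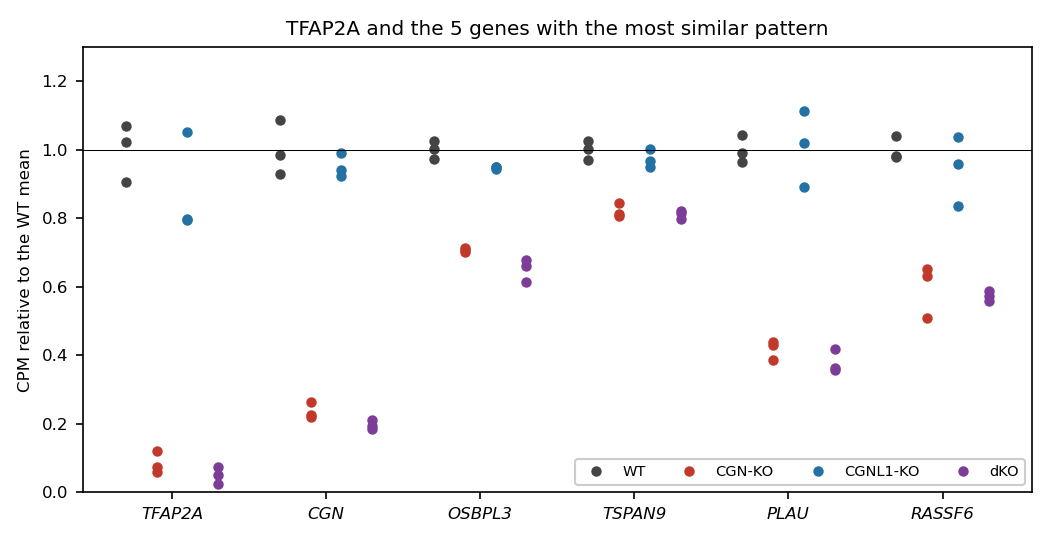
Level of TFAP2A and of the 5 genes with the most similar pattern (x axis) relative to the mean of the WT libraries (y axis, linear from 0). Points are libraries coloured by genotype; for each gene the CGN-KO and dKO libraries lie below those of WT and CGNL1-KO cells.

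Genes around the factors were counted from lists of partners, relatives, and genes described as targets elsewhere, of which 74 of 110 were tested. Against WT, the CGN-KO line had 27 changed list genes (36.5%, beside 19.0% of all genes tested; 20 higher and 7 lower). The CGNL1-KO line had 21 (28.4%, beside 10.3%; 15 higher and 6 lower), and the dKO line 26 (35.1%, beside 26.3%; 12 higher and 14 lower). Between the dKO and CGNL1-KO lines 15 differed (20.3%, beside 14.4%; 6 higher and 9 lower). Differences of list genes given here as a rise or fall passed limma's test in all 19 alternatives unless an exception is named. The count in CGN-KO cells was 17 without WT replicate 2. That in CGNL1-KO cells was 11 without CGNL1-KO replicate 3, and that between dKO and CGNL1-KO cells was 8 to 9 without CGNL1-KO replicate 3, dKO replicate 3, or the unnumbered dKO library.

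The remaining AP-2 genes, TFAP2D and TFAP2E, were not among the listed genes. Of 6 AP-2 cofactors, CREBBP, a histone acetyltransferase, alone passed a test. Its log2 difference was -0.20 in CGNL1-KO cells (limma adjusted p = 0.0407), and the call was lost with the 2 genotypes alone and without any 1 library other than WT replicate 2 or CGN-KO replicate 1 (-0.21 to -0.15). Of 10 genes described as AP-2 targets, 4 changed in CGN-KO cells, in which TFAP2A was scarce, and all 4 were higher (11.2% of all genes were). In CGNL1-KO cells, in which TFAP2A was kept, 6 changed, beside 10.3% of all genes, and all 6 were higher. In dKO cells 1 was higher and 3 were lower than in WT (14.8% and 11.5% of all genes), and 4 differed between dKO and CGNL1-KO cells (14.4% of all genes), all lower in dKO cells. The medians of this list were 0.10 for the CGN-KO, 0.28 for the CGNL1-KO, and -0.10 for the dKO line. Medians of all genes lay between -0.0039 and -0.00036. A part of TFAP2A in the values of this list was not tested, and each KO genotype was 1 line. KRT14, a basal keratin, was at 45.8, 67.5, 72.4, and 31.2 CPM on average in WT, CGN-KO, CGNL1-KO, and dKO cells. It rose in CGN-KO (0.54) and CGNL1-KO cells (0.65), fell in dKO cells (-0.54), and was lower in dKO than in CGNL1-KO cells (-1.19, limma adjusted p = 8.79e-08). Its reads could in part be shared with other type I keratins. CDKN1A, the cell cycle inhibitor p21, was chosen after its values were seen. It was higher in CGN-KO cells (0.24, limma adjusted p = 0.0146), a call that was lost without WT replicate 1 or 2 or CGN-KO replicate 2 or 3 (0.21 to 0.23). CDKN1A rose in CGNL1-KO cells (0.43) and was lower in dKO than in CGNL1-KO cells (-0.57). Its difference of -0.15 in dKO cells against WT did not pass limma's test (adjusted p = 0.103) except with the 2 genotypes alone.

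Of 15 other kidney lineage transcription factors, 4 were higher and 2 lower in CGN-KO cells, 1 was lower in the CGNL1-KO line, and 3 were higher and 3 lower in dKO cells than in WT, beside 19.0%, 10.3%, and 26.3% of all genes changed. POU3F3, a POU factor of the distal nephron, was at 7.85 CPM in WT, 2.72 CPM in CGN-KO, 5.21 CPM in CGNL1-KO, and 3.23 CPM in dKO cells on average. It fell in CGN-KO (log2 difference -1.26, limma adjusted p = 7.14e-06) and dKO cells (-1.06, limma adjusted p = 3.47e-05). Its fall in CGNL1-KO cells (-0.52) was lost without WT replicate 3 (-0.44), CGNL1-KO replicate 2 (-0.46), or CGNL1-KO replicate 3 (-0.46). Of 5 genes described as PAX2 or PAX8 targets or partners, SPRY1, an inhibitor of receptor tyrosine kinase signaling, fell in CGN-KO (-0.76) and dKO cells (-0.79). LHX1, a LIM homeobox factor of the early nephron, rose in dKO cells (0.34). CDH16, the kidney cadherin, rose in CGN-KO cells (0.83), a call that was lost without WT replicate 2 (0.63) or CGN-KO replicate 1 (0.57).

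GRHL3, the remaining Grainyhead-like gene, was at 13.0 CPM in WT, 28.6 CPM in CGN-KO, 22.7 CPM in CGNL1-KO, and 16.2 CPM in dKO cells on average. It rose in CGN-KO (1.09, limma adjusted p = 2.26e-05) and CGNL1-KO cells (0.74, limma adjusted p = 0.00151), and its difference of 0.29 in dKO cells did not pass (limma adjusted p = 0.118). That difference passed with the replicate block (0.48), with the 2 genotypes alone (0.29), and without CGNL1-KO replicate 1 (0.29). Of 15 genes described as GRHL2 targets, 5 were higher and 1 lower in CGN-KO, 6 higher and 2 lower in CGNL1-KO, and 3 higher and 3 lower in dKO cells, beside the same 19.0%, 10.3%, and 26.3% of all genes, with medians of 0.10, 0.11, and 0.03.

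Among relatives of ELF3, EHF, an ETS factor of epithelia, rose in CGN-KO cells (0.53, limma adjusted p = 0.00145). It was also called in CGNL1-KO (0.36) and dKO cells (0.32). The call in CGNL1-KO cells was lost with library totals only (0.33), with the 2 genotypes alone (0.36), and without WT replicate 2 or 3 or CGNL1-KO replicate 1 or 3 (0.27 to 0.39). That in dKO cells was lost without WT replicate 2 or 3 or any 1 dKO library (0.26 to 0.35). The 20 genes around EHF had medians of 0.015 for the CGN-KO and 0.051 for the CGNL1-KO line. For the dKO line their median was 0.23 (16 of 20 higher), and EHF minus this median was 0.084. The part of this segment in the value of EHF was not tested. ELF4 had a difference of 0.28 in dKO cells that was lost without WT replicate 1 or 3, CGN-KO replicate 3, or any 1 dKO library (0.18 to 0.31). ELF2 had one of -0.22 in dKO cells that was lost without dKO replicate 3 (-0.19). Its difference of -0.22 in CGNL1-KO cells was lost with the 2 genotypes alone (-0.22) and without WT replicate 1 or 2 or CGNL1-KO replicate 2 or 3 (-0.22 to -0.21). Of 13 other KLF and SP genes, 1 was higher and 3 lower in CGN-KO, 1 higher and 1 lower in CGNL1-KO, and 1 higher and 4 lower in dKO cells, again beside 19.0%, 10.3%, and 26.3% of all genes. KLF6 fell in CGN-KO (-0.46), CGNL1-KO (-0.32), and dKO cells (-0.42), and KLF11 rose in CGN-KO (0.49) and dKO cells (0.59). KLF9, a glucocorticoid-induced factor, fell in dKO cells (-0.74), a call that was lost without WT replicate 1 (-0.62).

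Of 7 other epithelial transcription factors, the CGN-KO line had 4 that were higher than WT, the CGNL1-KO line 2, and the dKO line 3, with 1 lower, beside 19.0%, 10.3%, and 26.3% of all genes changed. FOXA2, a forkhead factor of endoderm, rose in CGN-KO (0.78), CGNL1-KO (0.64), and dKO cells (0.50), as did OVOL2, a zinc finger repressor of mesenchymal genes (0.63, 0.43, and 0.46). The neighbours of both genes were also higher in all 3 lines. Their medians were 0.55, 0.61, and 0.52 over 14 genes around FOXA2 (NAPB to SEC23B). Over 20 genes around OVOL2 (RIN2 to NDUFAF5) they were 0.55, 0.65, and 0.59. The places of these segments and of that around TFAP2C were not compared, so they cannot be counted as separate. The part of these segments in the values of FOXA2 and OVOL2 was not tested. CASZ1, a zinc finger factor, rose in CGN-KO cells (0.51), a call that was lost without WT replicate 2 (0.47), and its call in dKO cells (0.44) was lost without WT replicate 1 or 2 or dKO replicate 2 or 3 (0.40 to 0.43). Of 3 transcription factors of epithelial-mesenchymal transition that were tested, SNAI1 passed the test in both single KO lines. Its call in CGN-KO cells (0.41) was lost without WT replicate 1 or 2 or CGN-KO replicate 1 or 2 (0.30 to 0.41), and its call in CGNL1-KO cells (0.46) without WT replicate 1 or 2 or CGNL1-KO replicate 1 or 3 (0.39 to 0.46).

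**Figure D5:**
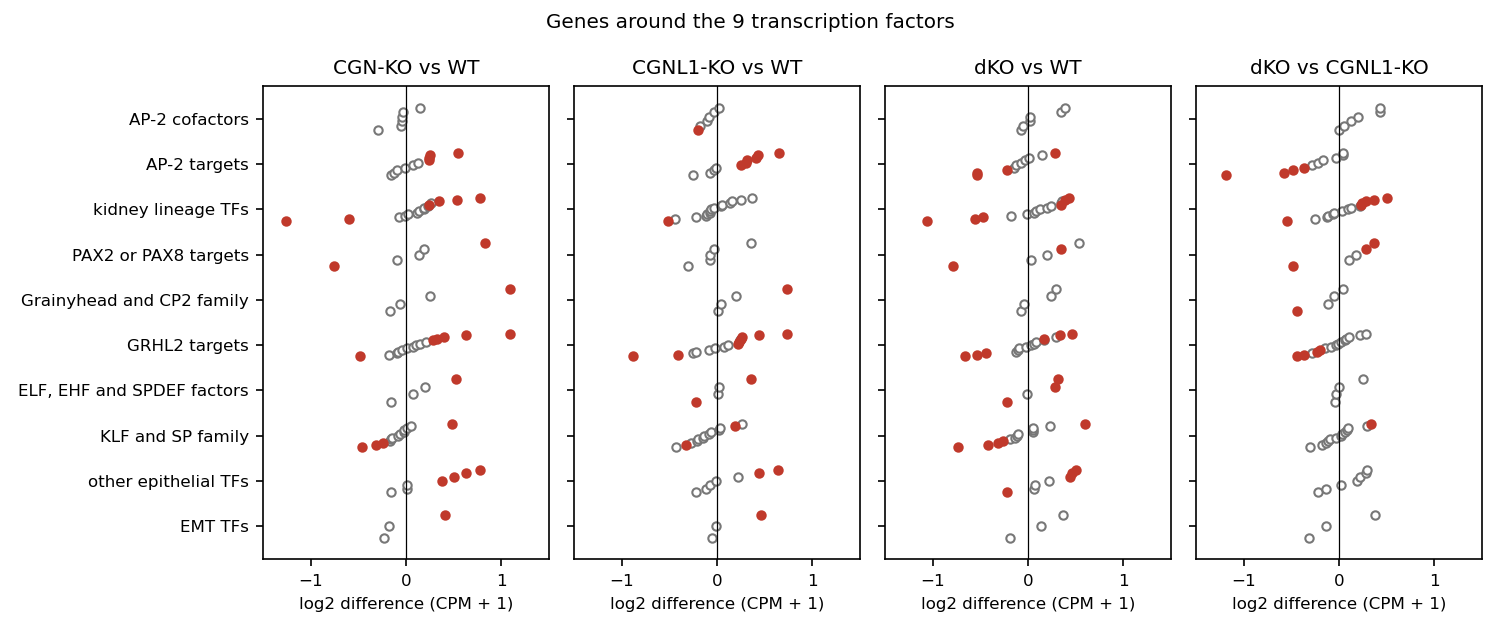
Log2(CPM + 1) difference (x axis) of each tested list gene in 4 comparisons, by list (y axis). Filled red points passed limma's test at an adjusted p below 0.05 and open points did not. The gene described as an AP-2 target that lies lowest between dKO and CGNL1-KO cells is KRT14.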

How the data were processed

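RNASeq was performed on WT, CGN-KO, CGNL1-KO, and dKO MDCKII cells, with 3 libraries per genotype. Per the methods, 300000 cells were cultured for 3 d, and stranded mRNA libraries from 500 ng RNA were read as single reads of 100 nt. The authors aligned reads with STAR 2.7.0f to CanFam3.1, counted them with HTSeq 0.9.1, and deposited counts normalized by library size, a signal in CPM. The strand setting of the counting is not given in the sources used here. In each library 100% of the values were whole multiples (within 0.01) of what 1 read is worth, so reads were recovered. Totals were 16837532 to 30086076 reads per library, and few reads limit the precision of scarce genes.

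Above a filter of over 1 CPM in 3 or more libraries, genotypes were compared by limma 3.58.1 (R 4.3.3), all 12 libraries entering a single linear model with no replicate block and values as log2(CPM + 1), with Benjamini-Hochberg adjustment over 12650 genes and a threshold of 0.05. Every adjusted p is limma's unless another tool is named. edgeR 4.0.16 and DESeq2 1.42.0 were also run on recovered reads. The edgeR test of the methods was an alternative because the deposited values are not counts. Other alternatives were a pseudocount of 0.25, no filter, totals without the TMM factor, a replicate block, only the 2 genotypes compared, and leaving out each library in turn. CPM were not divided by gene length, so levels were not compared between genes.

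The factors and lists were chosen with earlier results of these data known. Named genes are the 9 factors, CGN, CGNL1, the 5 genes most correlated with TFAP2A, and in each list the genes changed 2-fold, or else the 3 with the largest change among those changed. CDKN1A and the genes that bound segments were chosen after their values were seen, as were the alternatives for counts of list genes. RefSeq order placed 92.9% of tested genes by symbol. Promoter and protein sequences were not analysed here. Scripts were tested on simulated data. Plots were drawn with matplotlib 3.10.9.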

Additional observations from a re-analysis of the deposited data

Results flagged for a closer look

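For TFAP2C, the dKO minus CGNL1-KO difference was not the same as the CGN-KO minus WT difference by a test of the difference itself. Each KO genotype was 1 line, so a part of the CGNL1 background cannot be told apart from the clone. The difference of these differences was -0.73 on the log2(CPM + 1) scale (limma adjusted p = 0.00736). It lay between -0.90 and -0.64 over 18 alternatives, of which all 18 passed (adjusted p from 0.00706 to 0.0254). All 3 dKO libraries were below all 3 CGNL1-KO libraries, and all 3 CGN-KO libraries were above all 3 WT libraries. TFAP2C had 46 to 144 reads per library. Of 8 factors tested, 1 (TFAP2C) passed this test, beside 10.3% of all genes tested.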

How the results depend on the processing

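Of the counts of changed genes recomputed under each alternative, 14 came out lower and 2 higher by over 1.5 times. With a replicate block over the 11 numbered libraries, 1 factor changed in CGNL1-KO against WT cells (GRHL2, -0.20) in place of 0, no other count of changed factors moved, and list genes changed numbered 33 for the CGN-KO, 30 for the CGNL1-KO, and 34 for the dKO line. Same-numbered libraries deviated from their means with correlations of -0.0822 to 0.373 for WT with CGN-KO and 0.011 to 0.371 for WT with CGNL1-KO. For CGN-KO with CGNL1-KO they were 0.179 to 0.632. Those 2 genotypes were not compared directly here, but both entered the F test and the TFAP2C difference of differences. For dKO replicates 2 and 3 the correlations were -0.152 and 0.0859 with WT libraries. They were -0.233 and -0.123 with CGN-KO, and -0.235 and -0.124 with CGNL1-KO libraries. Since not every pair was above 0.1 in the comparisons made, the numbers were not taken to pair the samples. Of 6 libraries, 4 correlated best with their own number for WT with CGN-KO, 4 for WT with CGNL1-KO, and 5 for CGN-KO with CGNL1-KO. With only the 2 genotypes compared, 13 list genes changed in CGNL1-KO cells in place of 21. With 1 library left out, the number of changed factors was 1 to 2 between dKO and CGN-KO cells (2 without CGNL1-KO replicate 1), 1 to 3 between dKO and CGNL1-KO cells, and 3 to 5 by the F test. List genes then numbered 17 to 30 in CGN-KO, 11 to 23 in CGNL1-KO, and 8 to 17 between dKO and CGNL1-KO cells. Differences near 0 that were not called changed sign. For PAX2 between dKO and CGN-KO cells they were 0.081 with the replicate block and -0.099 to 0.054 with 1 library left out. For GRHL1 they ranged from -0.041 to 0.11 in CGN-KO, -0.11 to 0.065 in CGNL1-KO, and -0.068 to 0.079 in dKO cells against WT, -0.11 to 0.023 between dKO and CGN-KO, and -0.065 to 0.11 between dKO and CGNL1-KO cells with 1 library left out. They were 0.0014 in dKO cells with library totals only, and -0.020 between dKO and CGNL1-KO cells with the block. For ELF3 in CGNL1-KO cells they ranged from -0.034 to 0.14. TFAP2A between dKO and CGNL1-KO cells passed in all 19 alternatives and ranged from -4.20 (DESeq2) to -2.41, with edgeR at -4.18. Its difference in CGN-KO cells was -3.19 with a pseudocount of 0.25 and -3.47 with edgeR, and in dKO cells -3.72 and -4.36. The causes were not tested. TFAP2A rested on 5 to 29 reads in a CGN-KO or dKO library, which limits how well its low levels can be told from each other.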
